A study of Mus musculus with 6 samples.

Results

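The genes described here anchor the basal layer of the epidermis to the dermis. They are Itga6, Itgb4, Col17a1, Cd151, Dst and Plec of the hemidesmosome, Lama3 and Lamb3 of laminin-332, and Col7a1 of the anchoring fibril. Their probe sets were chosen by name: every probe set that the platform annotation pairs with exactly 1 of these 9 gene symbols, which gave 21 of 45101 probe sets on the array and 9 of its 18193 singly named genes. RNA was measured on 6 one-colour Affymetrix mouse arrays, 1 array per sample. The samples were skin at embryonic day 16.5, 3 Tcfap2c mutant and 3 control. Their titles number them as replicates within each group and do not say whether each is a separate animal. Tcfap2c, now named Tfap2c, encodes the transcription factor AP-2 gamma. The labels give neither the allele of the mutation, nor a strain, nor a driver of a deletion, and the description field of the control samples also mentions the mutation, so the groups rest on the titles. The tissue is epidermis in the series title and skin in the sample labels. No label places the samples in separate litters, and p-values cover only the spread among these 6 samples, which may be technical.

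Hemidesmosomes are plaques on the lower face of basal keratinocytes. Integrin alpha-6 beta-4, the pair encoded by Itga6 and Itgb4, binds laminin-332 in the basement membrane, and the plakins plectin (Plec) and the epithelial form of dystonin (Dst) tie the integrin to the keratin filaments inside the cell. Type XVII collagen (Col17a1) spans the membrane beside the integrin, and fibrils of type VII collagen (Col7a1) hold the basement membrane to the dermis. In humans, loss of these proteins causes the blistering skin diseases of the epidermolysis bullosa group.

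RefSeq windows of 300 bases around gene starts ran from 250 before to 50 after (build GRCm38.p6). Itga6, Itgb4 and Plec had none, and the chromosome of Lama3 was left out for the members. Windows of the other 5 of the 9 genes were used, 8 windows in all. They are shown because the mutated gene encodes a DNA-binding factor, and they were searched for the AP-2 motif GCCNNNGGC and for the same motif with 1 more base in its middle, which read the same on the opposite strand. Capitals mark the matches. Of 32851 windows of that length in the table, 16.6% hold the first form, 14.8% the longer one and 27% either. Of the genes with a window, Cd151 and Lamb3 are shown as those at opposite ends of the differences, Dst as the other gene with a match, and Col7a1 as a gene without one.
Cd151, chr7:141467112-141467411, plus strand: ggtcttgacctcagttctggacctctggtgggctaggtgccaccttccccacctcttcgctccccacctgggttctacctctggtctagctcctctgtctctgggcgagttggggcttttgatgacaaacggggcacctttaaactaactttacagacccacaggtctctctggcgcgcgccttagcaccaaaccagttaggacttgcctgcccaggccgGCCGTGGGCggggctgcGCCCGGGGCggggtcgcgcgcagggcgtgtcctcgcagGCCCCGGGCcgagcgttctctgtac
Dst, chr1:34011345-34011644, plus strand: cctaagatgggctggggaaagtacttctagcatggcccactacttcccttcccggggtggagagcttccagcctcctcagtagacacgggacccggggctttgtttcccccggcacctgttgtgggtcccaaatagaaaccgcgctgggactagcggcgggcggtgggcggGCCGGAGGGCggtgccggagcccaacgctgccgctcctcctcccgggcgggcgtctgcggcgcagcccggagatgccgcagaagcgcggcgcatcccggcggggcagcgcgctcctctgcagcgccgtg
Lamb3, chr1:193301744-193302043, plus strand: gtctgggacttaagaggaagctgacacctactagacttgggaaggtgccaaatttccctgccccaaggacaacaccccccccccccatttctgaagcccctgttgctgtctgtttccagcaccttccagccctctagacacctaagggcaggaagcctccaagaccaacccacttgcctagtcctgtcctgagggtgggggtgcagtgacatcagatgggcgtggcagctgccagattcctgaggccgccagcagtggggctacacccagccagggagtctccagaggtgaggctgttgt
Col7a1, chr9:108953336-108953635, plus strand: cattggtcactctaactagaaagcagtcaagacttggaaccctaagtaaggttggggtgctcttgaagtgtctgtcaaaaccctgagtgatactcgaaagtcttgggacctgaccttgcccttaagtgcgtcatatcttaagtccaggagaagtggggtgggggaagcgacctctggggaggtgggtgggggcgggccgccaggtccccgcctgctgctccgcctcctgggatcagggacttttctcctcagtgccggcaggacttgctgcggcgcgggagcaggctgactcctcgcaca
The Cd151 window has 3 matches to GCCNNNGGC, the first of them starting 30 bases before the gene start (position -30), the next at -13 and the last at 25. The Dst window has 1 match to the longer form, at -79. A second Cd151 window, at another start of that gene, has 1 match to each form (at -211 and, for the longer one, -219), which overlap. No match lies in the other Dst window, in either Lamb3 window or in the windows of Col7a1 and Col17a1. Thus 3 of the 8 windows hold a match. A match is a description of these letters only, and no binding was measured.

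The data of mutant sample 1 stood apart from the other 5 before any result is read. Over all tested probe sets it correlated with the rest at 0.94 on average, where the other 5 had averages of 0.961 to 0.97. The summed signal of 5 decidual and uterine genes, of which 3 were bright enough to test, was 49881 in that sample, 600 and 520.1 in mutant samples 2 and 3, and between 205.9 and 471.2 in control samples. The summed signal of 5 smooth muscle genes was 24590 in mutant sample 1, 2649 and 2307 in mutant samples 2 and 3, and 2674 to 3097 in control samples. Values without mutant sample 1 are therefore given beside the results that it moves most. All 6 basal and all 8 suprabasal keratinocyte markers were bright enough to test. So were all 8 fibroblast, all 8 skeletal muscle and all 8 endothelial markers. The summed signal of the fibroblast markers was 136805 to 140480 in mutant and 129487 to 147391 in control samples. That of the skeletal muscle markers was 71884 to 76608 in mutant and 75976 to 90914 in control samples. The samples thus held RNA of dermal and muscle cells beside that of epidermis, and the share of each was not measured. Median signals over all probe sets lay between 110 and 131.3, and precision is limited by the number of arrays.

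The comparison asked whether the anchorage genes differ in skin when Tcfap2c is mutated. None of their probe sets passed the test. Signals were compared on the log2(signal + 24.48) scale with limma, and 18 of the 21 probe sets, covering all 9 genes, were bright enough to be tested among 22518. At an adjusted p of 0.05 there were 0 calls in these 18 with limma, beside 1 call in all tested probe sets (0.00444%). At an unadjusted p of 0.05 there was 1 (5.56%), where 3.42% of all tested probe sets passed. The groups were fully separate for 1 of the 18, higher in the mutant, where 8.33% of all tested probe sets did not overlap (3.3% with the mutant higher and 5.03% with it lower). Without mutant sample 1 it was 1 higher, the same probe set of Cd151, and 2 lower, 1 of Itga6 and another of Cd151, where 10.7% of all were higher and 12% lower. Taking the brightest probe set of each gene, 8 of the 9 genes had a negative log2 difference (mutant minus control) and 1, Cd151, a positive one, and 53.5% of 11589 genes were negative. Among the 8, Plec (-0.00061) and Itga6 (-0.03) lay close to 0, and Col17a1 was positive (0.14) without mutant sample 1. Of the 18 tested probe sets, 11 were negative (61.1%). The median over the 9 genes was -0.18, or -0.083 without mutant sample 1, beside -0.014 over all genes. The median size of the difference, sign ignored, was 0.25 for the 9 genes and 0.12 for all genes. Without mutant sample 1 it was 0.14 for the 9 genes and 0.13 for all genes. Skin holds many cell types, and in bulk RNA fewer cells of a type and less RNA per cell cannot be told apart.

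**Figure D1:**
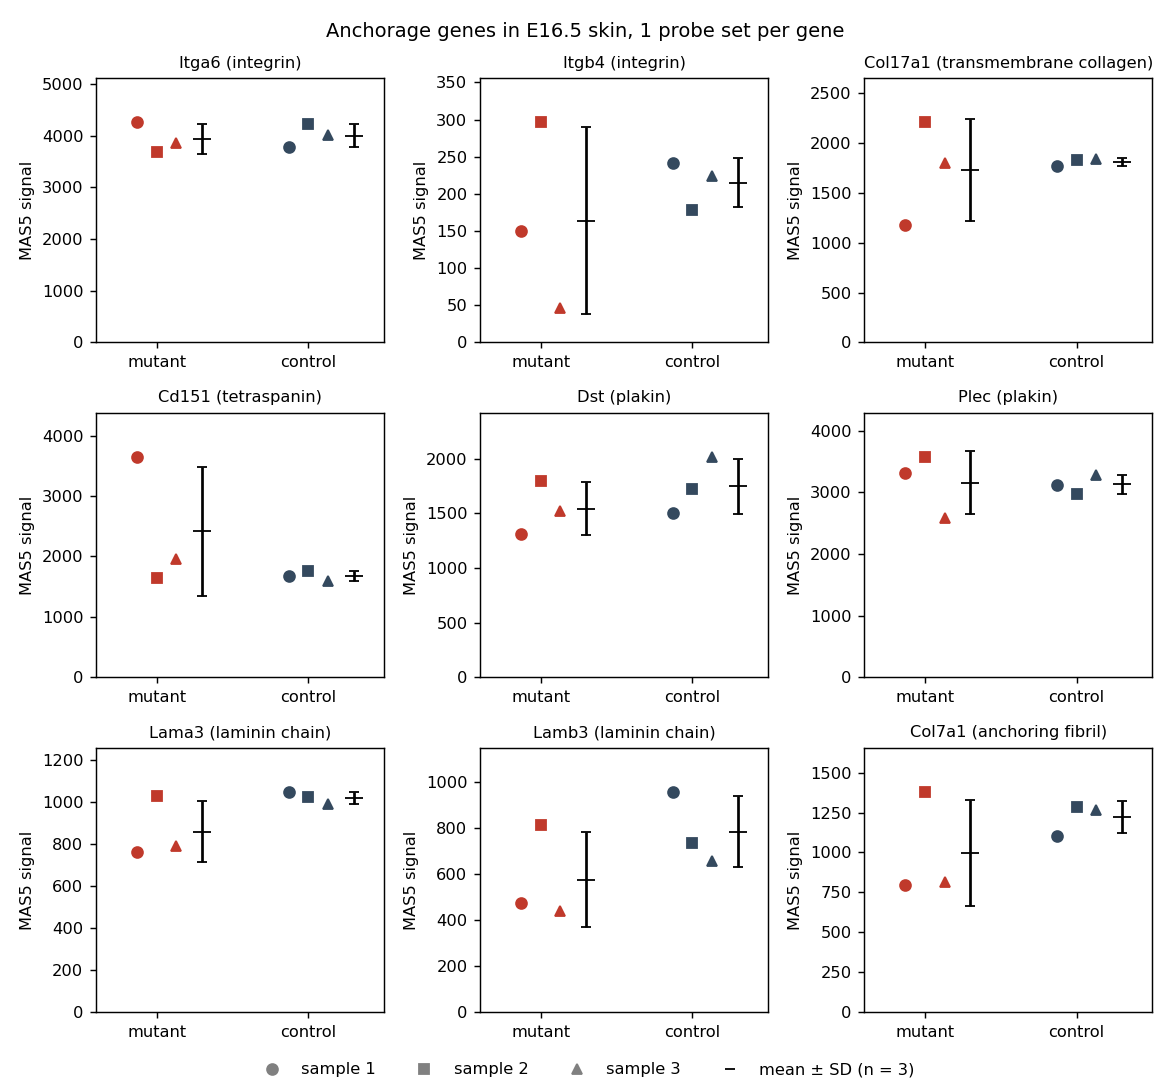
MAS5 signal (linear scale from 0) of the 9 anchorage genes, each by its brightest probe set, in 3 mutant (left, red) and 3 control (right, dark) samples. Marker shape gives the sample number and the bar is the mean ± SD (n = 3); mutant samples 1 and 3 lie below the 3 controls for Lama3, Lamb3 and Col7a1, and mutant sample 2 lies among or above them.

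Of the integrin pair, Itga6 encodes the alpha-6 chain, which endothelium and nerve also make. The brighter of its probe sets gave 4259, 3680 and 3869 in mutant samples 1, 2 and 3, against 3776, 4221 and 4009 in control samples. The groups overlapped, and the log2 difference was -0.03 (SE 0.12, 95% interval -0.29 to 0.24). The second probe set of Itga6 gave 4891, 3635 and 3775 in the mutants, against 3796, 3897 and 3833 in the controls, a log2 difference of 0.08 (SE 0.14). With all samples both lay close to 0, with opposite signs, and the intervals reach no further than 0.40 on either side. Without mutant sample 1 both were negative, at -0.083 and -0.052, and in the second probe set mutant samples 2 and 3 lay just below all controls.

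Itgb4 encodes the beta-4 chain, whose long cytoplasmic tail binds plectin. Its single probe set was dim and gave 150, 296.1 and 45.8 in mutant samples 1, 2 and 3, against 241.8, 178.4 and 224.6 in control samples. Mutant sample 3 was far below every other sample and mutant sample 2 above them all, so the groups overlapped. The log2 difference was -0.59 (SE 0.47, 95% interval -1.66 to 0.48; limma adjusted p = 1). Its size depends on the constant added before log2, being -0.71 with 4.84 and -0.42 with 76.05 in place of 24.48. With 24.48, the difference was -0.0086 without mutant sample 3, -1.10 without mutant sample 2 and -0.66 without mutant sample 1, so mutant sample 3 carried the negative value.

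Col17a1, the transmembrane collagen that is also known as a bullous pemphigoid antigen, had 1 probe set. It gave 1182, 2207 and 1800 in mutant samples 1, 2 and 3, against 1765, 1826 and 1842 in control samples. The controls lay close together, and mutant samples 1 and 2 lay on opposite sides of them. This gave a log2 difference of -0.11 (SE 0.21, 95% interval -0.59 to 0.37), which was 0.14 without mutant sample 1.

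Cd151 encodes a tetraspanin that associates with laminin-binding integrins. It was the member with the most probe sets, 6, of which 5 were tested, and all 5 had a positive difference. The brightest gave 3641, 1651 and 1957 in mutant samples 1, 2 and 3, against 1677, 1765 and 1590 in control samples. Mutant sample 1 was the high one and mutant sample 2 lay within the controls. Its log2 difference was 0.44 (SE 0.26, 95% interval -0.15 to 1.02), and 0.10 without mutant sample 1, the sample with the high decidual and smooth muscle signal. The part of those tissues in the Cd151 signal was not tested.

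The probe sets of Cd151 differed among themselves. The second brightest followed the first, with 3744 in mutant sample 1 and a log2 difference of 0.48 (SE 0.32), or 0.056 without that sample. The third gave 1294, 1093 and 877 in mutant samples, against 744.3, 848.3 and 737.4 in control samples. It was the probe set of the 18 whose groups did not overlap and the one past the unadjusted threshold. Its log2 difference was 0.46 (SE 0.17; limma adjusted p = 1), and 0.33 without mutant sample 1. These 3 probe sets have names ending in _x_at, the mark of probes that can also match other sequences. The other tested probe sets, without that ending, gave 0.01 (SE 0.16) and 0.14 (SE 0.30), the last of these 0.40 without mutant sample 1. In the brighter of those, mutant samples 2 and 3 had 699.4 and 723.1, below the control samples at 765 to 804.6, and mutant sample 1 had 973.5. Its difference was -0.14 without mutant sample 1.

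The plakins link the integrin to the cytoskeleton. Dst is a large gene with epithelial, neural and muscle forms, and its 4 probe sets were all tested. The brightest gave 1307, 1797 and 1524 in mutant samples 1, 2 and 3, against 1502, 1721 and 2012 in control samples, with overlap. The log2 difference was -0.18 (SE 0.17, 95% interval -0.56 to 0.20), and -0.065 without mutant sample 1. The second gave 516.2 in mutant sample 1, below 1435 and 1177 in mutant samples 2 and 3 and below all controls (1102 to 1450), a log2 difference of -0.41 (SE 0.33). The third gave 750.1 in mutant sample 1, above 451.2 and 409.3 in mutant samples 2 and 3 and above all controls (449.6 to 579.5), a log2 difference of 0.03 (SE 0.23). Mutant sample 1 was thus the lowest of 6 for the brightest Dst probe set and for the second, and the highest for the third. The files do not say which form each probe set reads. Without that sample the second differed by 0.024 and the third by -0.23, each with its sign turned. The dimmest gave -0.22 (SE 0.32), and -0.51 without mutant sample 1.

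Plec encodes plectin, made in epidermis and also in muscle and many other tissues. Its brightest probe set, whose ending _s_at marks probes that can match several transcripts, gave 3309, 3569 and 2583 in mutant samples 1, 2 and 3, against 3127, 2976 and 3283 in control samples. The log2 difference was -0.00061 (SE 0.15, 95% interval -0.33 to 0.33), the value closest to 0 among the 9 genes. The other tested probe set gave 1333, 2449 and 1672 in the mutants, against 2295, 1683 and 2294 in the controls, a difference of -0.23 (SE 0.23), or -0.032 without mutant sample 1. The third probe set of Plec was too dim to test, at 30.3 to 53.8 in mutant and 5.55 to 42 in control samples. The groups overlapped in all 3.

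**Figure D2:**
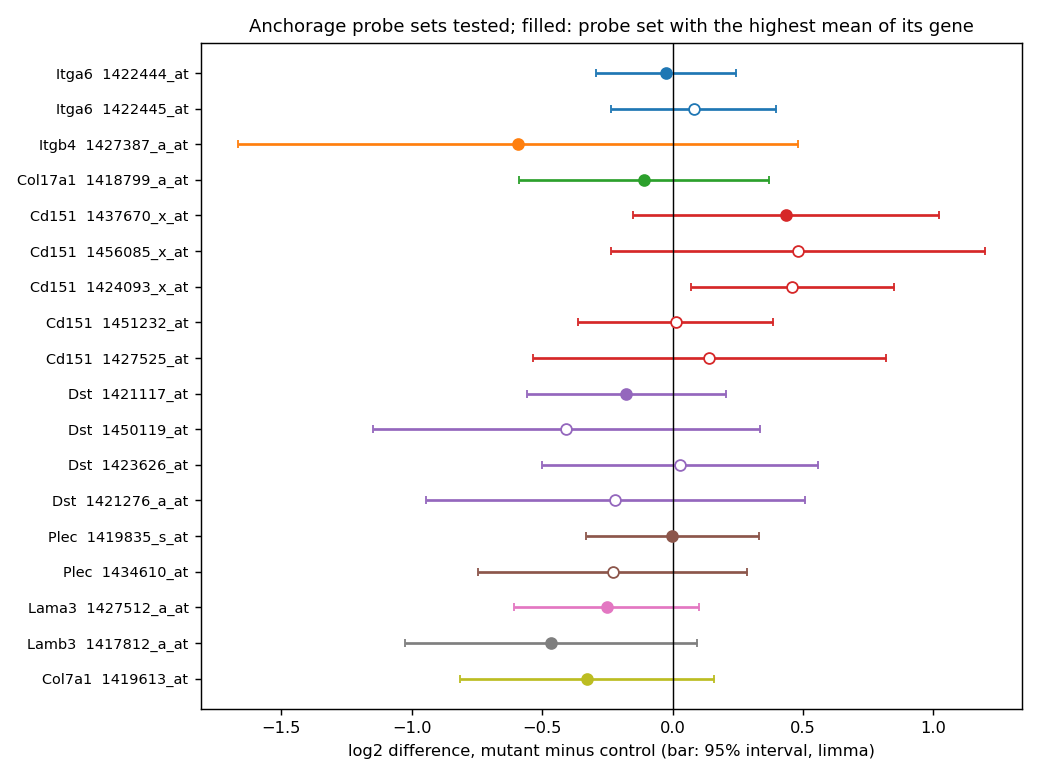
Log2 difference (mutant minus control) of the 18 tested probe sets, with the 95% interval from limma; filled points are the brightest probe set of each gene and open points the others. Of these intervals, 17 include 0, and the exception is the third Cd151 probe set at 0.46.

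Laminin-332 is the ligand of the integrin. Lama3, its alpha chain, gave 760.6, 1027 and 789.1 in mutant samples 1, 2 and 3, against 1046, 1022 and 990.4 in control samples. Mutant samples 1 and 3 lay below all controls and mutant sample 2 within them. For Lama3 the log2 difference was -0.25 (SE 0.16, 95% interval -0.61 to 0.10). The second Lama3 probe set was too dim to test, at 3.25 to 97.9 in mutant and 15.1 to 94.5 in control samples. Lamb3, the beta chain, gave 472, 812.5 and 439.2 in mutant samples, against 954.7, 735.8 and 657.6 in control samples. Here too mutant samples 1 and 3 were the low ones. The log2 difference of Lamb3 was -0.47 (SE 0.25, 95% interval -1.03 to 0.095; limma adjusted p = 1), and -0.36 without mutant sample 1.

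Col7a1, the anchoring fibril collagen, is made by keratinocytes and by fibroblasts. The signal was 797.2, 1378 and 814.9 in mutant samples 1, 2 and 3, against 1104, 1288 and 1269 in control samples. Mutant samples 1 and 3 lay below all controls, and mutant sample 2 above them. For Col7a1 this gave a log2 difference of -0.33 (SE 0.22, 95% interval -0.82 to 0.16) and -0.20 without mutant sample 1. The 8 fibroblast markers had a median difference of -0.02.

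Lama3, Lamb3, Col7a1 and Itgb4 had the same split within the mutant group, with samples 1 and 3 low and sample 2 near or above the controls. The split was seen in these values, and its share over all genes was not counted. Genes outside the list, such as Agpat5 below, had it too. With mutant sample 2 left out, 6 of the 18 probe sets passed an unadjusted p of 0.05, where 5.72% of all tested probe sets did. They were those of Lamb3 (-0.73), Col7a1 (-0.58), Itgb4 (-1.10) and Lama3 (-0.38), 1 of Plec (-0.46) and 1 of Cd151 (0.66), and none passed after adjustment (limma adjusted p from 0.658 to 0.849). Sample 2 has no label that sets it apart, so this count describes how far 1 sample moves the comparison. With array weights 4 of the 18 passed it (Lamb3, Col7a1, Itgb4 and Lama3, all lower), where 11.2% of all did. The weights were 0.257, 0.56 and 3.13 for mutant samples 1, 2 and 3. That fit therefore mostly reads mutant sample 3 again, which was low for these genes, and adds no separate evidence. Without mutant sample 1, 0 of the 18 passed an unadjusted p of 0.05 with limma, where 7.15% of all did, and 0 passed after adjustment, where 0.173% of all did.

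The mutant samples differed more among themselves than the controls did. On the log2 scale the SD in the mutant group was larger than in the control group for all 9 genes, and for 70.5% of all genes tested. The median SD over the 9 genes was 0.44 in mutant and 0.08 in control samples (n = 3 each), and over all genes 0.24 in mutant and 0.15 in control samples. Itgb4 had the widest gap between these SDs, with 1.10 in mutant and 0.20 in control samples. Col17a1 had the largest ratio, with 0.45 in mutant and 0.032 in control samples. Itga6 varied least in the mutant group, with 0.11 in mutant and 0.08 in control samples. Mutant sample 1, with its decidual and smooth muscle signal, carried part of this spread. With mutant samples 2 and 3 alone the SD was larger than in the controls for 7 of the 9 genes, all but Itga6 and Dst. The share over all genes was 48.8%. The median of this SD was 0.26 over the 9 genes and 0.14 over all genes. It rests on 2 samples, against 3 for the controls, so the 2 SDs are not fully alike.

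The anchorage genes are made in the basal layer, so their deviations were set beside those of 6 basal keratinocyte markers, as medians of log2 signal minus the control mean. The markers were Krt5, Krt14, Krt15, Trp63, Cdh3 and Sox15. Their median was -0.70, 0.34 and 0.07 in mutant samples 1, 2 and 3, and 0.13, -0.10 and -0.04 in control samples. The median of the 9 anchorage genes was -0.41, 0.07 and -0.27 in the mutant samples and between 0.00037 and 0.024 in the control samples. In mutant sample 1 both medians were low, together with the high decidual and smooth muscle signal, and the part of these tissues in it was not tested. In mutant sample 3 the basal median lay within the control range, and 8 of the 9 anchorage genes lay below the control mean. That count was 6 and 2 in mutant samples 1 and 2, and 4, 4 and 3 in control samples. In mutant sample 3, Itga6 (-0.047), Col17a1 (-0.0081) and Dst (-0.18) lay among the controls. Of the basal markers in that sample, Krt5, at 16961, and Krt14, at 14439, were below all controls (18352 to 21249 and 15743 to 18496). Krt15, at 14030, was above all controls (10195 to 12409), and Trp63, Cdh3 and Sox15 were among them. The signal of Itgb4 in mutant sample 3 deviated by -1.76, Lamb3 by -0.78, Col7a1 by -0.57 and Lama3 by -0.36. Over the groups, Krt5 differed by -0.23 and Krt14 by -0.22, Krt15 by -0.08, Trp63 by -0.05, Sox15 by -0.03 and Cdh3 by 0.05 on the log2 scale, and none passed the test. Mutant sample 1 carried the negative values, since without it Krt5 differed by 0.0045, Krt14 by 0.012, Krt15 by 0.39, Trp63 by 0.073, Sox15 by 0.39 and Cdh3 by 0.38.

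**Figure D3:**
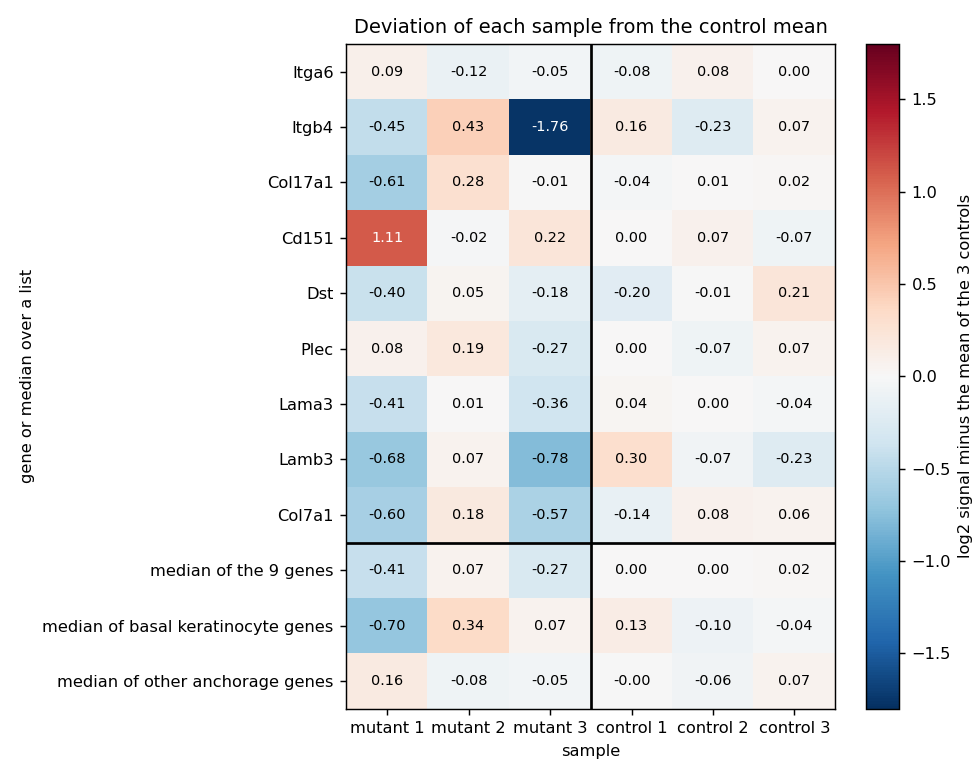
Log2 signal of each sample (columns, 3 mutant then 3 control) minus the mean of the 3 controls, for the 9 anchorage genes and for 3 medians (rows); blue is below and red above the control mean. Mutant sample 3 has the lowest value, -1.76 for Itgb4, and mutant sample 1 the highest, 1.11 for Cd151, while its basal keratinocyte median is -0.70.

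Other genes of the basement membrane and of cell anchorage were taken as a list of 29, of which 27 were tested. None passed with limma after adjustment, and at an unadjusted p of 0.05 there were 0 higher and 1 lower, where 1.45% and 1.97% of all tested probe sets passed. Of the 27 genes, 13 had a positive and 14 a negative difference, with a median of -0.02. The groups did not overlap for 1 gene higher and 2 lower in the mutant, where 3.3% and 5.03% of all tested probe sets did not. The gene with the smallest p was Ecm1, a secreted matrix protein that binds perlecan and type IV collagen. It gave 1486, 2378 and 1126 in mutant samples 1, 2 and 3, against 2465, 2524 and 3127 in control samples. Each mutant sample lay below every control, and mutant samples 1 and 3 were again the lowest (log2 difference -0.75, SE 0.25; limma adjusted p = 1). Sdc1, the cell surface proteoglycan syndecan-1, differed by 0.20 (SE 0.11) without overlap between groups. Bmp1, a protease that trims laminin-332 and procollagen VII, differed by -0.27 (SE 0.15), also without overlap, at 524.1 to 580.3 in mutant and 599.2 to 745 in control samples. Ilk, the integrin-linked kinase, differed by 0.24 (SE 0.15) with overlap. Integrins of the focal contacts lay near 0, with 0.07 for Itga3 and 0.06 for Itgb1.

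Cell types that share members with the basal layer were checked in the same way. The summed signal of 8 endothelial markers was 4614 to 6305 in mutant and 5227 to 6209 in control samples, and that of 8 skeletal muscle markers was 71884 to 76608 in mutant and 75976 to 90914 in control samples. The summed signal of 6 Schwann cell and nerve markers was 3605 to 4009 in mutant and 3363 to 3600 in control samples. Of these markers 4 were bright enough to test and all 4 had a positive difference, with a median of 0.22. The groups overlapped for each of the 4. Cdh19 and S100b were too dim to test. The part of these cell types in the values of Itga6, Dst and Plec was not tested. Tfap2c itself, at 1412 ± 175 in the mutants against 1290 ± 84.7 in the controls (SD, n = 3 each), differed by 0.12 (SE 0.14) on the log2 scale, and which part of the gene is altered is not stated.

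Among the 9 genes, Col7a1 and Itgb4 were nearest to their mean profile over the 6 samples, by root-mean-square difference of standardised log2 signals (0.30 and 0.36), and Cd151 and Itga6 farthest (1.60 and 1.40). Each of the 9 is part of that mean, so its closeness is partly built in. Ranked by closeness among all 11589 genes, Col7a1 stood at 33, Itgb4 at 74, Itga6 at 7246 and Cd151 at 10200. The mean is thus not a profile that all 9 share. Of 11580 other genes, the 5 nearest were Yipf1 (0.12), Agpat5 (0.13), Gtf2f1 (0.17), Gm5617 (0.17) and Dhx8 (0.18). Agpat5, an acyltransferase of phospholipid synthesis, had 4578, 6931 and 4032 in mutant samples 1, 2 and 3, against 6010, 6700 and 6609 in control samples. With 6 samples and this many genes some profiles will be close, and nothing about shared function follows.

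**Figure D4:**
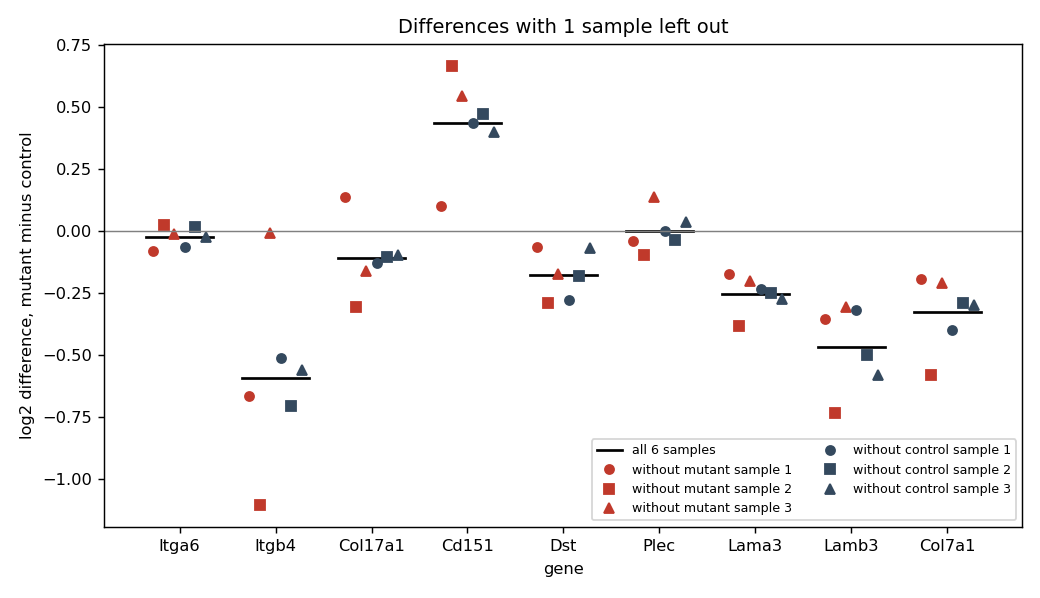
Log2 difference (mutant minus control) of the 9 genes with all 6 samples (line) and with 1 mutant (red) or 1 control (dark) sample left out (marker shape gives the sample number). Lama3, Lamb3, Col7a1, Dst and Itgb4 stay below 0 and Cd151 above it in all 6 cases, and Itga6, Col17a1 and Plec change sign in at least 1.

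With 1 sample left out in turn, the difference of Lamb3 lay between -0.73 and -0.31, that of Col7a1 between -0.58 and -0.20 and that of Lama3 between -0.38 and -0.17. That of Itgb4 lay between -1.10 and -0.0086. That of Cd151 lay between 0.10 and 0.66. None of the 9 genes passed an adjusted p of 0.05 in any of these fits.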

How the data were processed

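The authors' deposited table holds 1 linear-scale MAS5 intensity for each probe set and sample. The submitters' processing notes name MAS5 and give no version, and the RNA carried a biotin label, per the labels' protocols. Each column had a 2% trimmed mean of 500, so the deposited intensity was already scaled per array and was not normalized again. Detection calls were not used here.

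Affymetrix controls (64 probe sets) were dropped. The pseudocount of 24.48 added before taking log2 is the 20th percentile of the table, and it shrinks the fold changes of dim probe sets. A probe set was tested when its mean log2 value exceeded the median, near a signal of 114.5. Gene symbols came from GEO's platform annotation (34958 probe sets with 1 symbol, 932 with several and 9211 with none) updated through gene identifiers against RefSeq. Mutant minus control was tested in limma 3.58.1 under R 4.3.3 (two-sided; lmFit, then eBayes with a trend) and Benjamini-Hochberg adjustment over 22518 probe sets. Only the limma fit was tested on simulated data. The simulated noise was equal in both groups, and no simulated sample stood apart as mutant sample 1 does. Plots were made with matplotlib 3.10.9.

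The genes named are the 9 members, 4 of the other anchorage genes with the smallest p, the basal keratinocyte markers, Tfap2c, and the 5 genes with the nearest profile. Itga3, Itgb1, Sox15 and Cdh3 were named after their values were seen. Some listed genes are not reported here. The members, lists and rules were chosen with earlier results of these data known. Alternatives were other pseudocounts, filters, normalizations and variance models, array weights, the replicate number as a block, each sample left out, the removal of probe sets of the _s_at, _x_at and _a_at kinds, and gene means.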

Additional observations from a re-analysis of the deposited data

How the results depend on the processing

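No anchorage probe set passed an adjusted p of 0.05 (or of 0.1) in any setting run, and limma's lowest adjusted p for a gene was 0.227, for Itgb4 with array weights. The median over the 9 genes stayed negative, from -0.31 without mutant sample 2 to -0.083 without mutant sample 1. Of 157 values of single genes under alternatives, 6 had the other sign. They were Col17a1 without mutant sample 1 (0.14), Itga6 without mutant sample 2 (0.022), without control sample 2 (0.014) and with the mean over its probe sets (0.028), and Plec without mutant sample 3 (0.14) and without control sample 3 (0.034). With 1 sample left out Itga6 lay between -0.083 and 0.022, Col17a1 between -0.31 and 0.14 and Plec between -0.096 and 0.14. The cause was not tested. Anchorage probe sets past an unadjusted p of 0.05 numbered 1 with all samples, 4 with array weights (Lamb3, Col7a1, Itgb4 and Lama3, where 11.2% of all passed), 0 with median centring and 0 without _s_at, _x_at and _a_at, a setting that removes every tested probe set of Itgb4, Col17a1, Lama3 and Lamb3, 3 of Cd151, 1 of Dst and the brightest of Plec. Under it Cd151 differed by 0.011 (0.44 with all probe sets) and Plec by -0.23. With 1 sample left out they numbered 0 to 6, with 0 without mutant sample 1, control sample 1 or control sample 3. Array weights were 0.257, 0.56 and 3.13 for mutant samples 1, 2 and 3, so that fit rests mostly on mutant sample 3. Over all probe sets, calls numbered 106 with array weights, 8 with the replicate block, and 1 to 39 with 1 sample left out (39 without mutant sample 1, 2 without mutant sample 2 and 3 without control sample 2). Same-numbered samples' deviations from their group means had correlations of -0.052, -0.073 and 0.11. These show no pairing by number, but with 3 samples per group and mutant sample 1 apart they cannot exclude it. The block left every anchorage gene's difference unchanged and ended or made no anchorage call. The median of the other anchorage genes was -0.064 to 0.087 with 1 sample left out, the highest without mutant sample 2. Over all probe sets the median difference was -0.025 as deposited, -0.017 after quantile normalization and -0.036 after median centring. Itgb4 could not be given at the stricter filter, and its dim probe set had the widest interval of the tested anchorage probe sets (-1.66 to 0.48). The next widest was that of a brighter one, the second Dst probe set (-1.15 to 0.34).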
